A study of Homo sapiens with 18 samples.

Results

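The effect of WWOX in HT-1376 cells was measured in 6 CAGE-seq libraries, out of 18 in the series. CAGE-seq counts the capped 5′ ends of RNA, so that a level reads the activity of a gene's start sites, and levels are given in CPM, reads scaled to a common library total. The 3 variants with WWOX (WK, WA and WC) were compared with the 3 variants without it (KK, KA and KC), and each was paired with the variant that had the same second transduction. Of 16575 genes in the table, 11037 reached 5 CPM in at least 1 of the 6 libraries, and 6444 of these moved in the same direction in WK/KK, WA/KA and WC/KC (58.4% of those past the filter).

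The series covers 3 human bladder cancer lines, HT-1376 along with CAL-29 and RT-112, and asks how WWOX and the AP-2 transcription factors act on the same genes. HT-1376 is a line of human urinary bladder carcinoma. The first letter of a variant names the first transduction, with W for WWOX and K for the blank lentivirus, and the second letter names the second, with A for AP-2α (TFAP2A), C for AP-2γ (TFAP2C) and K for the blank. Thus KK received blanks only, KA and KC received one AP-2 factor, WK received WWOX, and WA and WC received WWOX followed by an AP-2 factor. WWOX was delivered with the pLenti-GIII-CMV-GFP-2A-Puro system and the AP-2 factors with pLKO-Neo-CMV. All 6 variants had passed selection with puromycin and then with G418. The second transduction was performed on cells that already carried WWOX or its control, so the 3 W libraries share a first transduction, as do the 3 K libraries. The effect of WWOX cannot therefore be told apart from other differences between these populations of transduced and selected cells. Every variant had 1 library, and p-values measure only the spread among these libraries of a single cell line.

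WWOX is a tumour suppressor whose WW domains bind proline-rich motifs of partner proteins, AP-2 factors and the Hippo effector YAP among them. The cornified envelope is the protein shell that squamous cells lay down beneath the plasma membrane when they mature. It is built from small proline-rich proteins (SPRR), involucrin and others, and it is accompanied by S100 proteins, stress keratins and kallikrein proteases. The urothelium is instead known for uroplakins and for luminal regulators such as GATA3 and PPARG, and bladder tumours can show squamous features.

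The libraries held 13357102 to 17170660 reads on genes, and 3 reads, the limit for a gene without reads, were worth 0.164 to 0.213 CPM (counting error only). Across the 11037 genes, the log2 levels of K libraries correlated with each other at 0.935 to 0.971, those of W libraries at 0.957 to 0.977, and W with K at 0.875 to 0.918. Of 47 genes that mark HT-1376 among the lines, 42 to 45 stayed at 10% or more of their KK level in the W libraries. The 68 genes that mark CAL-29 had medians there of 1.24% to 2.2% of their own level. Yet 12, 12 and 13 of these 68 reached 10% or more in WK, WA and WC, against 0 in KK and 8 each in KA and KC. Among 9 genes that mark RT-112, 1 reached 10% in WA and in WC. The epithelial markers EPCAM, CDH1, KRT8 and KRT18 were present in every library. Luminal urothelial markers were only partly present, with GATA3 at 73.81 to 242.73 CPM but UPK1A at 0 in all 6 libraries and KRT20 at 0 in 5 and at 0.11 CPM in WK. Of the squamous markers, KRT14 stood at 345.55 to 766.29 CPM and TP63 at 48.86 to 106.39 CPM in both groups of variants. KRT5 stood at only 0.2 to 10.74 CPM and IVL at 15.78 to 48.23 CPM. KRT6A (0.13 to 1.7 CPM) and SPRR1B (2.96 to 20.77 CPM) were low in the K libraries and higher in W.

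SPRR2D encodes a small proline-rich protein of the cornified envelope and is located on the minus strand of chromosome 1 (153039732 to 153041931 in hg38, GENCODE 44). Its level was 1.32, 5.84 and 5.11 CPM in KK, KA and KC and 199.28, 84.67 and 144.85 CPM in WK, WA and WC. Every W library stood above every K library. The mean log2FC of the 3 pairs was 5.07 ± 0.53 (SE, limma, n = 3 pairs, adjusted p = 0.0129). The first 150 bases of SPRR2A and SPRR2D transcripts share an identical run of 119 bases, and how reads that match both were divided is not given in the sources used here, so that the split between them is uncertain.

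The CAGE-seq levels of WWOX itself and of TFAP2A gave no check of the labels. Those of TFAP2C followed the AP-2γ label within each group, with 1 library per variant. The authors checked the transductions by Western blot for these proteins, which was not examined here. WWOX read 22.36, 24.74 and 16.95 CPM in KK, KA and KC and 18.58, 19.24 and 23.06 CPM in WK, WA and WC. The groups overlapped, with a log2FC of −0.06 ± 0.22 (adjusted p = 0.864) that turned positive after TMM scaling (0.0532). The overexpressed genes were carried by vectors, whose RNA may begin outside the native start sites, and whether such reads were counted on these genes is not stated. TFAP2A, which encodes AP-2α, had a log2FC of 0.00 ± 0.22 (adjusted p = 0.992) and read 68.99, 100.66 and 55.95 CPM in KK, KA and KC and 76.90, 69.91 and 72.86 CPM in WK, WA and WC. KA stood above KK, whereas WA stood below WK. TFAP2C, which encodes AP-2γ, read 158.24, 171.70 and 213.93 CPM in the K libraries and 68.99, 98.03 and 162.76 CPM in the W libraries. KC was the highest of the K libraries and WC the highest of the W libraries. The groups overlapped for TFAP2C, since WC exceeded KK, and its log2FC of −0.80 ± 0.20 passed the test (adjusted p = 0.0451) but did not after TMM scaling.

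In the whole table of HT-1376, limma called 581 genes higher in W (5.26% of those tested) and 1347 lower (12.2%) at an adjusted p below 0.05. The same sign in all 3 pairs was found for 2247 higher (20.4%) and 4197 lower genes (38.0%), and the W and K libraries did not overlap for 1406 higher (12.7%) and 2669 lower genes (24.2%), or 36.9% together. The median log2FC of all genes was −0.16 with the CPM as deposited and −0.04 after TMM scaling, a scaling that sets the bulk of genes level. Higher genes made up 30.1% of the calls as deposited and 43.7% after TMM scaling (673 higher, 6.1% of those tested, and 868 lower, 7.86%). The share of lower genes thus depends on the scaling.

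The pairs differed in size. The median log2FC of the genes called higher was 1.83 in WK/KK, 1.30 in WA/KA and 1.13 in WC/KC, and that of the genes called lower was −1.25, −0.97 and −1.12. KK was the lowest of the 3 K libraries for 357 of the 581 genes called higher (61.4%) and the highest for 246 of the 1347 called lower (18.3%). Without WK and KK, 390 genes were past the threshold, against 1204 without WA and KA and 1184 without WC and KC.

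**Figure D1:**
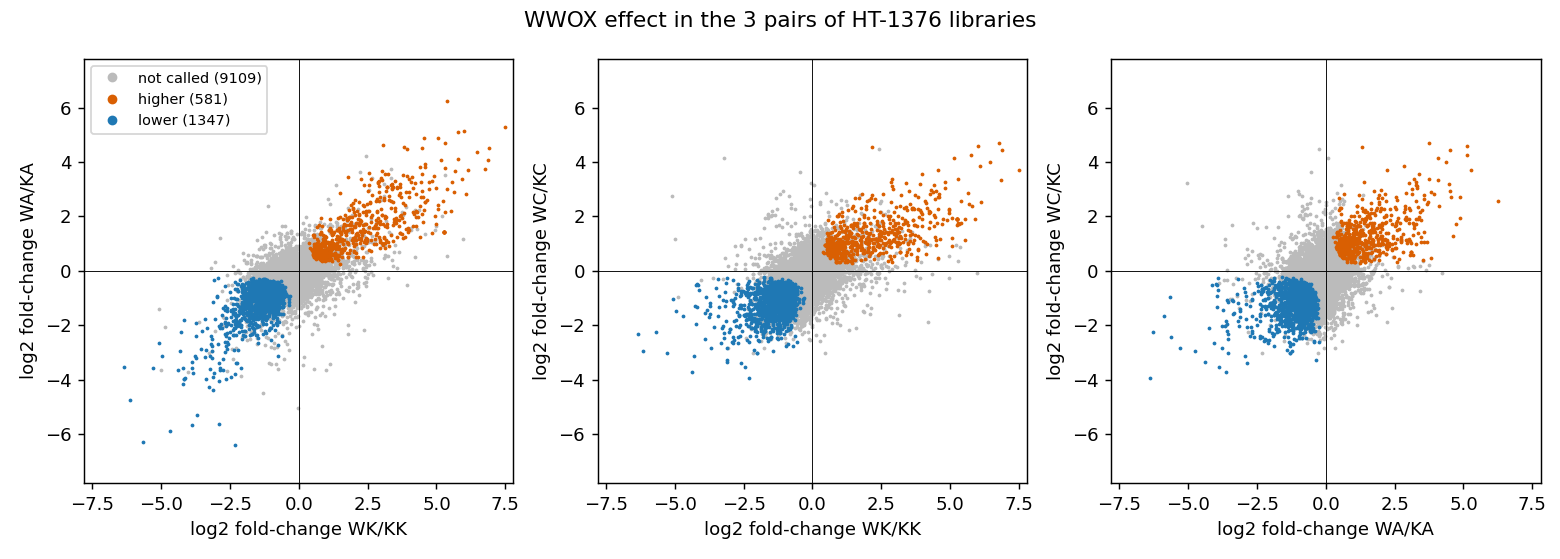
Log2 fold-change (log2FC, log2 of CPM + 0.5) of each gene in one pair of HT-1376 libraries against another pair, for 11037 genes; orange points were called higher in W (581), blue points lower (1347) and grey points not called (9109). Genes that were called lie in the quadrants where both pairs share a sign; the largest rise is 7.49 (S100A2, in WK/KK).

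The annotated start sites of the genes with the largest changes were inspected in RefSeq (GRCh38.p14), since CAGE-seq reads RNA from start sites. The values used here are given per gene, so which start sites gave the reads is not known. The windows below run 5′ to 3′ on the strand of the gene, from 250 bases before to 50 bases after the annotated start, and are shown for those of the 3 genes that ranked first in either direction that had an entry, namely S100A2 (chr1:153565795-153566094, minus strand), SPRR2A (chr1:153057463-153057762, minus strand), FOXE1 (chr9:97852976-97853275, plus strand), BCAM (chr19:44808809-44809108, plus strand) and ATP6V1B1 (chr2:70935650-70935949, plus strand). Capitals mark matches to the AP-1 motif TGANTCA, the TATA motif TATAAA or the AP-2 motif GCCNNNGGC, searched on both strands, which overlapped in none of these windows.
S100A2: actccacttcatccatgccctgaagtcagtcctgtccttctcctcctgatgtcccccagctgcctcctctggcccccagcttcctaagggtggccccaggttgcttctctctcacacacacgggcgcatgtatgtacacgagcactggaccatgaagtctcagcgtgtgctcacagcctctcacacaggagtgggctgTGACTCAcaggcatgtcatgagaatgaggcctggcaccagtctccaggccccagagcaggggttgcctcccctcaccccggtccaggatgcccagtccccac
SPRR2A: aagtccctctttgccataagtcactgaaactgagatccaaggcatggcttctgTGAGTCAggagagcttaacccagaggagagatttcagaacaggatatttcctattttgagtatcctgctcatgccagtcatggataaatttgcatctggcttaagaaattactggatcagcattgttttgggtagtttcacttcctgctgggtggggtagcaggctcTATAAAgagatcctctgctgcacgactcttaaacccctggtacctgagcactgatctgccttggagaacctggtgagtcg
FOXE1: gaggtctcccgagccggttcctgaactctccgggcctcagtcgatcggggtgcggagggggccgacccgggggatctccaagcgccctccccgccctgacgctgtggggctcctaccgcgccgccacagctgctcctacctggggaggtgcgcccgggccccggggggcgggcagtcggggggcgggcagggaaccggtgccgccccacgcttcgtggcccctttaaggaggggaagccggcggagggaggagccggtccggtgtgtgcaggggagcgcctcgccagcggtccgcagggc
BCAM: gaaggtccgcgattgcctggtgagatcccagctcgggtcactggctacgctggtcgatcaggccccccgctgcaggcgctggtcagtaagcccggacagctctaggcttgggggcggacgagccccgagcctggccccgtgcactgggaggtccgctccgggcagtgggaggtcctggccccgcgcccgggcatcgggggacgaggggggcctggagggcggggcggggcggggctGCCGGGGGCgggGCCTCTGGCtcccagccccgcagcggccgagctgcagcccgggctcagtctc
ATP6V1B1: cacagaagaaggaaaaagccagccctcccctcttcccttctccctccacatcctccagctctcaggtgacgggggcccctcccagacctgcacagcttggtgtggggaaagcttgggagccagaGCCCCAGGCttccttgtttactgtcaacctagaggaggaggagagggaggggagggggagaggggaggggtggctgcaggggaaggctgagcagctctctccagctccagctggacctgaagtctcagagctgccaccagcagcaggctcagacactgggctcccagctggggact

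The AP-1 motif was found at base 199 of the S100A2 window and at base 54 of the SPRR2A window, where a TATA match followed at base 221. The AP-2 motif was found at bases 237 and 249 of the BCAM window and at base 125 of the ATP6V1B1 window. None of the 3 motifs matched the FOXE1 window. Among 27305 RefSeq promoters, 7.76% held the AP-1 motif, 12% the TATA motif and 23% the AP-2 motif. Of the 11037 genes, 8632 had a promoter in the table, and of these promoters 4.46% held the AP-1 motif, 5.56% the TATA motif and 32.9% the AP-2 motif. The AP-1 motif was present in 8.62% of the 429 promoters of genes called higher and in 4.09% of the 1076 of genes called lower. The TATA motif was present in 8.62% and 7.16% of them, and the AP-2 motif in 31.2% and 33.9%. These shares are a description of letters in the windows, and binding was not measured.

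Many genes of the cornified envelope and of late squamous maturation were higher in W. Of 26 members of the list that passed the filter, 16 were called higher and 2 lower, with a median log2FC of 2.35 against −0.16 for all genes. Over all genes past the filter, 5.26% were called higher and 12.2% lower. Members such as SPRR2A passed the filter only through the W libraries, where they were high. With no filter, 25 of 50 members were called higher and 2 lower, with a median log2FC of 1.41. Members of other lists, such as KRT6A, CXCL2, GPX2, MMP9 and EFNB2, also passed the filter only through the W libraries. SPRR2A read 0, 0.91 and 2.69 CPM in the K libraries and 58.95, 31.57 and 67.88 CPM in the W libraries (log2FC 5.27 ± 0.50, adjusted p = 0.011). SPRR1B, a precursor of the envelope, read 2.96, 20.77 and 11.27 CPM against 234.84, 151.14 and 168.02 CPM (log2FC 4.25 ± 0.57). SPRR2E, PI3 (elafin, a protease inhibitor that is cross-linked into the envelope) and the calmodulin-like CALML3 rose by log2FC of 4.15, 4.05 and 4.74. The first bases of SPRR2E share an identical run of 104 bases with SPRR2A and with SPRR2D. The split of reads among these genes is uncertain, and the SPRR2 members of the count may not be independent. In CALML3, KC reached 4.82 CPM and WC 31.17 CPM, whereas WA stood highest at 124.17 CPM. The kallikreins KLK5 (log2FC 3.15), KLK7 (2.81), KLK8 (2.32) and KLK6 (2.14), proteases of the shedding epidermis, rose as well.

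The list did not move as a whole. Involucrin (IVL), a scaffold of the envelope, had a log2FC of −0.61 without a call, and the plakins EVPL (−0.59) and PPL (−0.64) that anchor the envelope to desmosomes were also not called. DSC2, a desmosomal cadherin, fell by 0.88 (not past the threshold after TMM scaling) and ECM1 by 1.39 on the log2 scale, and ECM1 read 92.93, 162.90 and 119.34 CPM against 44.33, 37.96 and 59.06 CPM. Without WK and KK, 12 members were called higher and 1 lower out of 24, and edgeR on recovered reads called 14 higher and 1 lower.

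**Figure D2:**
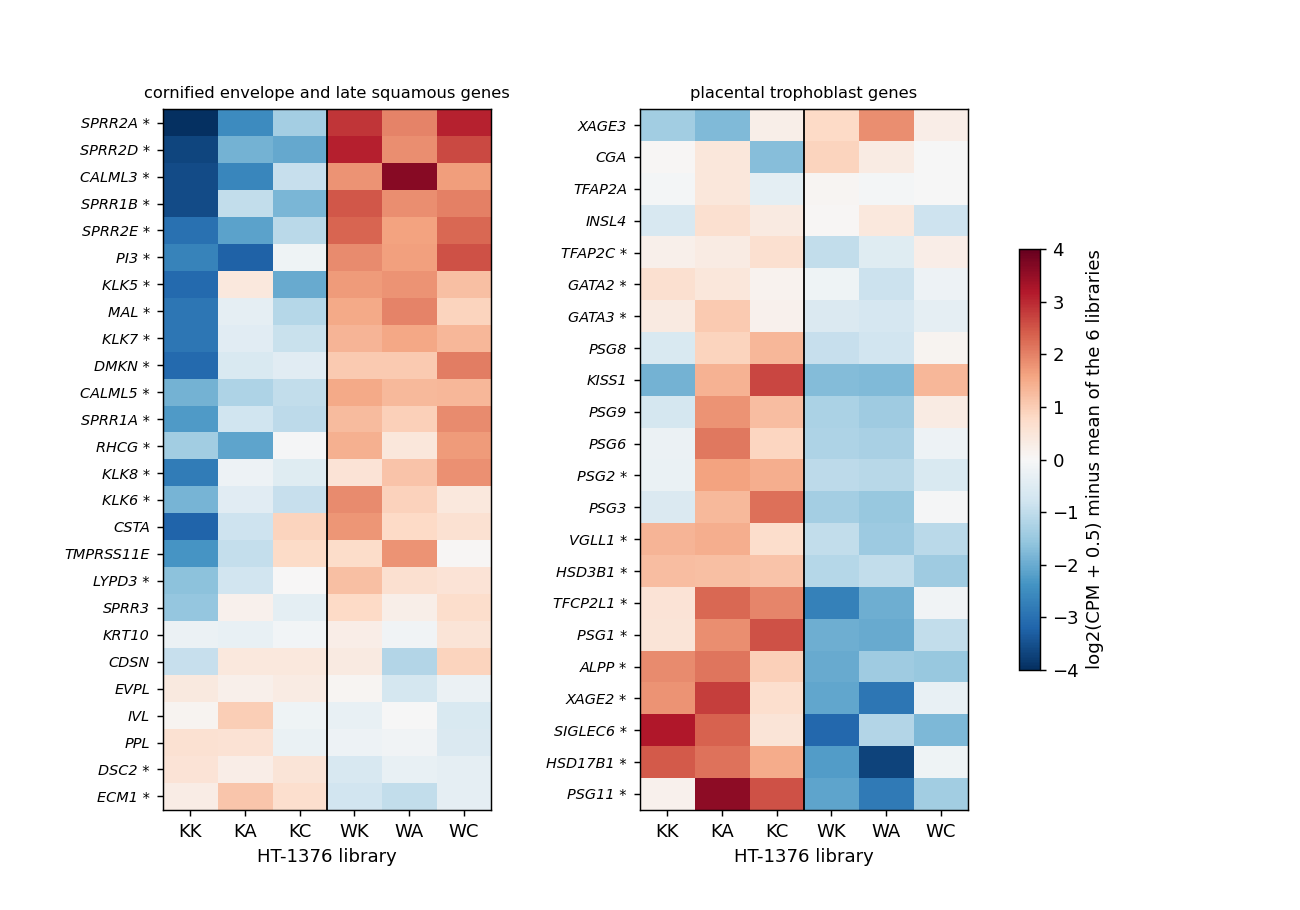
Log2(CPM + 0.5) of each gene minus its mean over the 6 HT-1376 libraries, from −4 (blue) to 4 (red), for the cornified envelope list (left, 26 genes) and placental trophoblast genes (right, 22 genes); columns are libraries and asterisks mark genes called by limma. SPRR2, CALML and KLK genes are lowest in KK and high in WK, WA and WC, and ALPP, HSD3B1 and VGLL1 are high in KK, KA and KC.

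Stress keratins and some of the basal keratins were higher along with the SPRR genes. In the list of basal and squamous keratins and adhesion genes, 8 of 21 members were called higher and 2 lower (median log2FC 0.62). The shares over all genes were 5.26% higher and 12.2% lower. KRT6A, a keratin of wounded and squamous epithelium, read 0.13, 1.48 and 1.70 CPM in K and 34.01, 68.25 and 41.58 CPM in W (log2FC 5.05 ± 0.32, adjusted p = 0.00535). The groups did not overlap in KRT6A or in its paralogue KRT6B (log2FC 3.20), and an identical run of 99 bases at their 5′ ends leaves the split of reads between them uncertain. KRT17, KRT15, KRT16 and the desmosomal plakophilin PKP1 rose by log2FC of 2.24, 1.83, 1.65 and 2.36. The basal keratin KRT14 had a log2FC of 0.36 and the squamous master regulator TP63 of −0.37, and neither was called. KRT5 overlapped between the groups, with 0.2, 9.14 and 3.83 CPM in K and 2.06, 8.95 and 10.74 CPM in W. EGFR and the desmocollin DSC3 fell by 0.85 and 1.05, and after TMM scaling EGFR had a log2FC of −0.73 that was not past the threshold. Without WK and KK, 4 members of the list were called higher and none lower.

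S100A2 had the largest log2FC among the higher genes named by rule at a pseudocount of 0.5 CPM, whereas FOXE1 exceeded it at 0.05 CPM. S100A2, a calcium-binding protein of basal epithelium, read 23.22, 117.85 and 259.66 CPM in KK, KA and KC and 4276, 4598.9 and 3357.4 CPM in WK, WA and WC. Every W library exceeded every K library, and the log2FC was 5.49 ± 0.64 (adjusted p = 0.0148). Of 15 S100 genes past the filter, 4 were called higher and 1 lower, against 5.26% higher and 12.2% lower over all genes. S100A8 and S100A9, the subunits of calprotectin, rose by log2FC of 3.00 and 2.35, yet KC stood far above KK and KA in both. It read 8283 CPM of S100A8, below all W libraries, and 13156 CPM of S100A9, above WK and WA, so that the groups overlapped in S100A9. S100A7 (psoriasin) had a log2FC of 0.38 (adjusted p = 0.684), which turned to −0.66 without WK and KK. S100A4, a protein associated with motility, fell by 2.11.

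Of 17 luminal urothelial genes, 5 were called lower and 1 higher (median log2FC −0.61), against 12.2% lower and 5.26% higher over all genes. After TMM scaling 1 was called lower and 1 higher with a median of −0.50, and with quantile normalization 4 lower and 1 higher with a median of −0.66. With no filter, 4 of 26 were higher and 3 lower (median −0.45). Without WK and KK, and in voom, 1 was lower and 1 higher, and edgeR called 1 lower and 0 higher. DESeq2 called 6 lower and 1 higher, and without WC and KC 7 were lower and 1 higher. PSCA, a surface antigen of urothelium, fell by 2.43 (not past the threshold after TMM scaling) and VGLL1, a TEAD cofactor, by 2.35. VGLL1 read 110.69, 117.51 and 70.55 CPM in K and 21.33, 15.27 and 20.16 CPM in W. KRT19 was the member called higher past the filter, with 84.71, 94.93 and 12.62 CPM in K and 378.09, 234.66 and 308.43 CPM in W (log2FC 2.67 ± 0.57).

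Of 21 chemokine and cytokine genes, the interleukin-1 family included, 8 were called higher and none lower (median log2FC 2.13). Over all genes the shares were 5.26% higher and 12.2% lower. Without WK and KK, 5 were called higher with a median of 0.91, voom and edgeR called 4 each, and with no filter 10 of 31 were called with a median of 1.24. CXCL1, a ligand of the neutrophil receptor CXCR2, read 2.56, 13.16 and 18.86 CPM in KK, KA and KC and 215.05, 179.06 and 111.32 CPM in WK, WA and WC. Its groups did not overlap, and the log2FC was 4.13 ± 0.62. CXCL2 (3.42), the cytokine LIF (3.16) and CXCL6 (3.02) followed. The first bases of CXCL2 and CXCL3 share an identical run of 67 bases, so reads may be split between them. The interferon-stimulated genes were less uniform, with 5 of 35 called higher and 2 lower, LY6E (log2FC 3.09) and IFI27 (2.59) among the former, and without WK and KK 2 were higher and none lower.

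Genes of the NRF2 response, which detoxify oxidants and carbonyls, were called higher in 8 of 28 cases and lower in 1 (median log2FC 0.42). The shares over all genes were 5.26% higher and 12.2% lower. Without WK and KK, 2 were called higher (median 0.26), and without WC and KC 4. The aldo-keto reductase AKR1C2 read 2.17, 6.81 and 10.00 CPM in K and 234.09, 148.64 and 165.66 CPM in W (log2FC 4.93 ± 0.47). AKR1C1 (3.57) and AKR1C3 (2.59) rose as well, but AKR1C1 and AKR1C2 transcripts hold an identical run of 150 bases at the 5′ end, and their reads cannot be told apart with certainty. The selenoprotein GPX2 rose by 2.61. TXNRD1, a reductase of the same response, fell by 1.33, and the glutathione transferase GSTM3 fell by 2.96.

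Matrix genes and proteases changed in both directions. Of 23 metalloproteinase and protease genes, 5 were called higher and 4 lower, against 5.26% higher and 12.2% lower over all genes. Members such as MMP9 and MMP2 passed the filter only through the W libraries. With no filter, 6 of 29 were higher and 4 lower. The gelatinase MMP9 read 0.07, 2.10 and 2.48 CPM in K and 19.73, 43.01 and 51.93 CPM in W (log2FC 4.45 ± 0.28), and MMP2 rose by 3.80. The plasminogen activator PLAT rose by 2.92, while the metalloprotease ADAMTS1 fell by 2.49. The actin-bundling protein fascin (FSCN1), which forms filopodia, read 2.76, 23.83 and 27.51 CPM in K and 377.17, 409.0 and 282.62 CPM in W (log2FC 4.76 ± 0.63). Fibroblast, endothelial and blood cell markers summed to 9.79 to 18.64 CPM in the K and 48.23 to 66.27 CPM in the W libraries, of which COL1A1, COL1A2 and CD68 carried the difference. The endothelial CDH5 ran the other way, with 2.10, 3.06 and 4.11 CPM in K and 0.29, 0.19 and 0.71 CPM in W, as did COL3A1 in KK and KA (1.51 and 2.78 CPM, against 0 in KC and 0.11 to 0.22 CPM in W). LUM stayed at 0.22 CPM or below and CD14 at 0.38 CPM or below in every library. Their part in the matrix result was not tested.

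FOXE1, a forkhead factor of thyroid and hair follicle, stood at or below the limit of 3 reads in the K libraries (0.07, 0.06 and 0.21 CPM). In WK, WA and WC it read 36.19, 19.17 and 16.71 CPM. Its log2FC of 5.25 depended on the pseudocount, from 3.55 with 2 CPM to 7.23 with 0.05 CPM, and is not a measure of the fold itself.

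**Figure D3:**
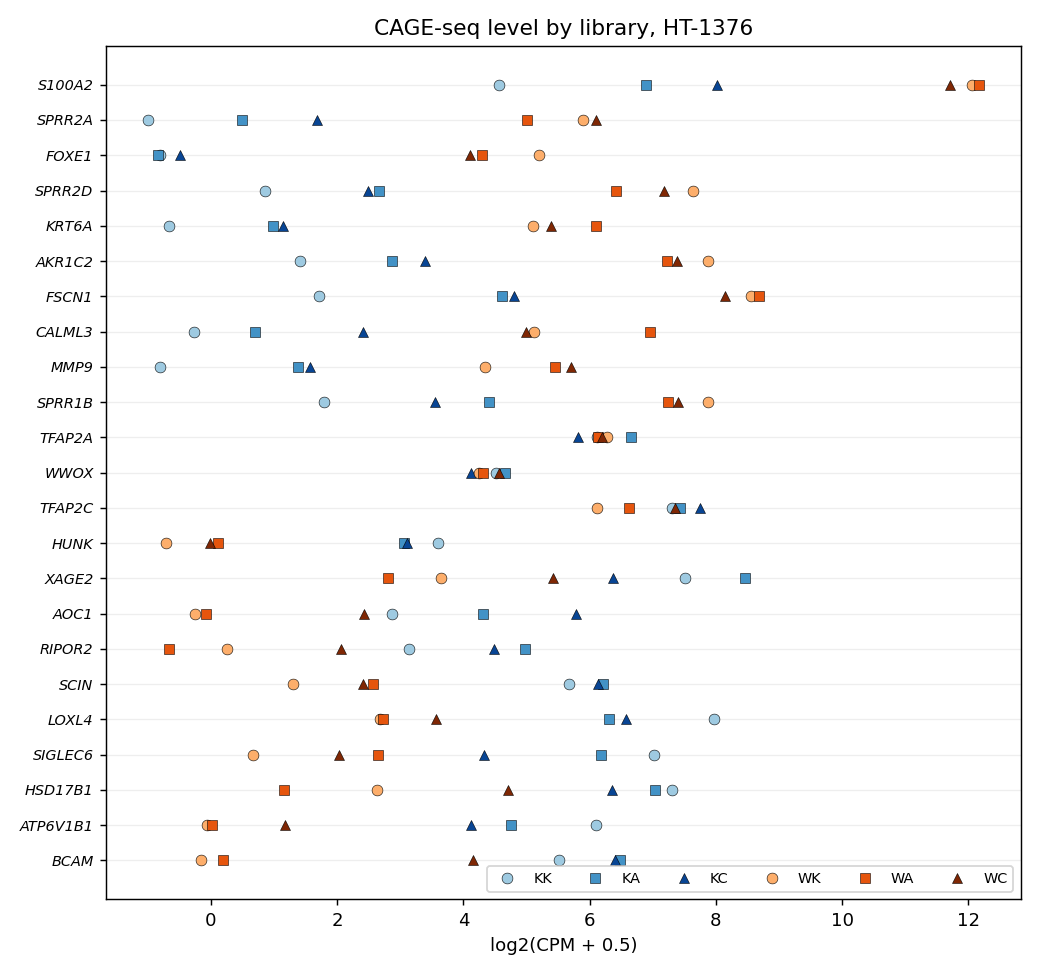
Log2(CPM + 0.5) by library for WWOX, TFAP2A, TFAP2C and the 20 genes with the largest changes named by rule; blue symbols are KK, KA and KC and orange to brown symbols WK, WA and WC. The groups are separate for the genes at the top and the bottom and overlap for WWOX, TFAP2A and TFAP2C.

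Among the genes that fell, BCAM, an adhesion molecule that binds laminin, showed the largest change. It read 45.31, 88.34 and 83.60 CPM in KK, KA and KC and 0.40, 0.64 and 17.26 CPM in WK, WA and WC (log2FC −4.73 ± 0.73, adjusted p = 0.0207). WC kept more of it than WK and WA, yet stood below each K library. ATP6V1B1, a subunit of the vacuolar proton pump, read 67.81, 26.50 and 16.80 CPM against 0.46, 0.51 and 1.75 CPM (log2FC −4.61 ± 0.57). The actin-severing protein scinderin (SCIN) read 50.31, 73.71 and 69.77 CPM against 1.95, 5.43 and 4.82 CPM, and its log2FC of −3.91 ± 0.22 had the smallest adjusted p (0.00456). LOXL4, a lysyl oxidase that cross-links collagen, fell by 3.95, and the kinase gene HUNK, with 7.83 to 11.58 CPM in K, by 3.46.

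HSD17B1, SIGLEC6 and XAGE2 are known from placental trophoblast, a tissue in which AP-2γ and GATA factors are active. HSD17B1, which makes oestradiol, read 158.24, 130.56 and 81.47 CPM in K and 5.68, 1.73 and 25.58 CPM in W (log2FC −4.07 ± 0.73). SIGLEC6 read 128.84, 72.17 and 19.57 CPM in K and 1.09, 5.75 and 3.56 CPM in W, and XAGE2 fell by 3.49. A list of placental trophoblast genes was therefore drawn up after these values were seen, and its counts are a description without support. Of 22 members past the filter, 13 were called lower and 0 higher (median log2FC −1.84), and 10 were lower after TMM scaling. Over all genes 12.2% were lower, and 7.86% after TMM scaling. The placental alkaline phosphatase ALPP read 482.41, 574.55 and 255.62 CPM in K and 32.17, 48.31 and 45.03 CPM in W. The first bases of ALPP and ALPG share an identical run of 65 bases, so reads may be split between them. PSG1, a pregnancy-specific glycoprotein, read 35.32, 91.12 and 146.14 CPM against 6.02, 5.69 and 12.16 CPM. PSG1 shares an identical run of 76 bases with PSG11 and of 34 to 42 bases with PSG2, PSG9 and PSG6. The split of reads among PSG genes is uncertain. CGA, the hormone subunit, had a log2FC of 0.80 and was not called.

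Hippo effectors and YAP targets, which include a partner of WWOX, were called lower in 10 of 25 cases and higher in 1 (median log2FC −0.70), and lower in 7 after TMM scaling. Over all genes 12.2% were lower, and 7.86% after TMM scaling. The transcription cofactor VGLL3 read 30.52, 49.87 and 31.41 CPM in K and 11.35, 16.23 and 10.63 CPM in W, and the kinase STK3 (MST2) fell by 1.41 and FSTL1 by 1.55. YAP1 itself had a log2FC of −0.10, which was 0.0143 after TMM scaling, and CCN1, a classical YAP target, of −0.18, and neither was called. Leaving out WK and KK, 2 members were called lower.

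**Figure D4:**
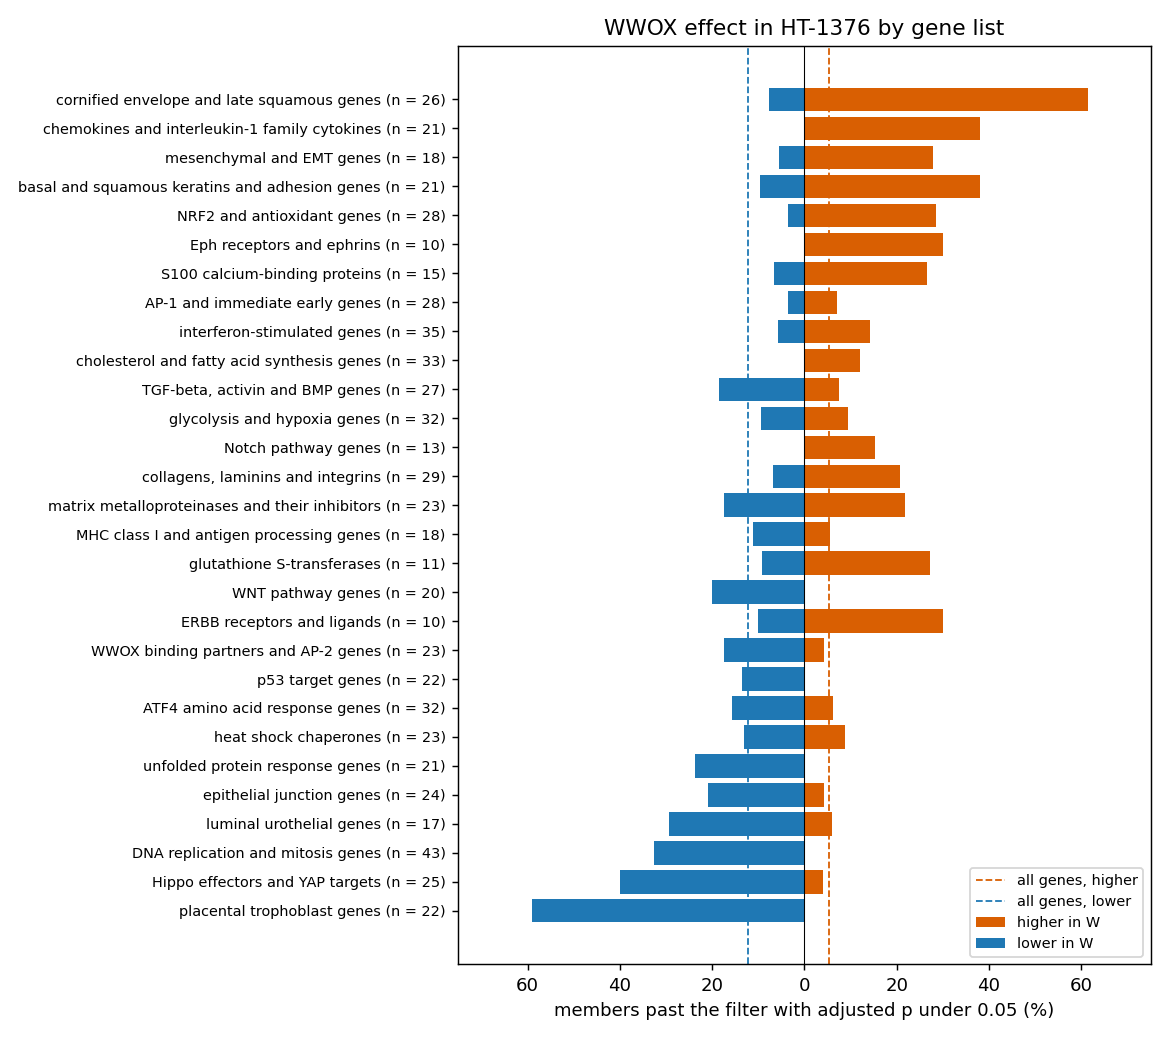
Share of the members past the filter that were called higher (orange, to the right) or lower (blue, to the left) in W for lists with at least 10 members, ordered by median log2FC; dashed lines give the shares over all 11037 genes (5.26% and 12.2%). The cornified envelope list has the largest share of higher genes, and the placental list, which was drawn up after values were seen, has the largest share of lower genes.

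DNA replication and mitosis genes were lower in 14 of 43 cases and higher in none (median log2FC −0.64), and lower in 8 after TMM scaling. Over all genes 12.2% were lower, and 7.86% after TMM scaling. KIF20A, a mitotic kinesin, read 67.54, 55.21 and 61.12 CPM in K and 10.21, 37.07 and 14.19 CPM in W, so that WA stood between the others. MCM10 (−1.72), PCNA (−1.58) and POLA1 (−1.54), which act at the replication fork, fell as well. Only 2 members were called without WK and KK. The ER chaperone and unfolded protein response list had 5 of 21 members lower and none higher, and 2 lower after TMM scaling. None of these 21 was called by limma without WK and KK.

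The counts of signalling genes are read against 5.26% of all genes called higher and 12.2% called lower. Of 10 Eph receptors and ephrins, 3 were called higher, EFNB2 (log2FC 3.16), EPHB2 (2.85) and EPHB6 (2.04), and none lower. Of 10 ERBB genes, 3 were called higher, the ligands HBEGF (1.84), AREG (1.20) and TGFA (1.14), and 1 lower, the receptor EGFR. edgeR called 1 of the ERBB genes higher, and without WK and KK none was called. In the TGF-beta list 5 of 27 genes were lower and 2 higher, where the co-receptor TGFBR3 fell by 2.22 and the ligand TGFB2 by 1.98, and the activin antagonist FST rose by 3.09. FST and EFNB2 passed the filter only through the W libraries. With no filter, 4 of 17 Eph genes and 2 of 37 TGF-beta genes were higher. With at least 5 CPM in 3 or more libraries, 0 of 23 TGF-beta genes were higher and 5 lower. WNT pathway genes were lower in 4 of 20 cases, p53 targets in 3 of 22, and Notch genes were higher in 2 of 13 cases, with JAG1 (1.04) and LFNG (1.03). After TMM scaling 2 of the WNT genes were lower. With WK and KK left out, limma called 2 Eph genes and 1 Notch gene higher, 2 TGF-beta genes and 1 p53 target lower, and no WNT gene.

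Of 29 collagen, laminin and integrin genes, 6 were called higher and 2 lower (5.26% and 12.2% over all genes). COL4A6 (3.79) and COL1A2 (3.14) were among the higher genes, and passed the filter only through the W libraries. Without WK and KK 4 genes were higher and none lower, and with no filter 8 of 38 were higher and 2 lower. In the mesenchymal list 5 of 18 rose and 1 fell, with tenascin C (TNC) at 0.26, 11.75 and 15.24 CPM in K and 38.42, 156.44 and 84.97 CPM in W. Its members MMP9, MMP2 and COL5A1 passed the filter only through the W libraries. With no filter, 8 of 26 mesenchymal genes were higher and 1 lower. Of 24 epithelial junction genes, 5 were lower and 1 higher, with PKP2 falling by 1.66 and ESRP1, a splicing regulator of epithelia, by 0.96. After TMM scaling 2 of these 24 were lower, and without WK and KK 1. Cholesterol and fatty acid synthesis genes were higher in 4 of 33 cases and lower in none, and without WK and KK in 1. In the remaining lists, read against 5.26% called higher and 12.2% lower over all genes, AP-1 and immediate early genes had 2 of 28 higher and 1 lower, glycolysis and hypoxia genes 3 of 32 higher and 3 lower, ATF4 response genes 2 of 32 higher and 5 lower, heat shock chaperones 2 of 23 higher and 3 lower, glutathione S-transferases 3 of 11 higher and 1 lower, MHC class I genes 1 of 18 higher and 2 lower, and WWOX binding partners with AP-2 genes 1 of 23 higher and 4 lower.

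The WWOX effect was then compared with that of RT-112, a line of the same series with the same 6 variants. The interaction of WWOX with the cell line passed the threshold for 1108 of 11691 genes (9.48%). Of the genes called in HT-1376, 309 of 581 higher and 530 of 1347 lower genes differed from RT-112. For a gene that RT-112 does not express, the difference largely restates its change in HT-1376. The count was therefore repeated over called genes past the filter in RT-112. Selection for a call in HT-1376 also favours a larger value there, and the medians are a description. Of the genes past both filters, 216 of 418 higher and 346 of 945 lower genes differed. The median log2FC of the 418 genes was 1.20 in HT-1376 against 0.09 in RT-112, and that of the 945 genes was −1.07 and −0.09. SPRR2D did not pass the filter in RT-112 alone, and its difference was 4.90 ± 0.67 (adjusted p = 0.0102), while that of BCAM was −5.65 ± 0.98 (adjusted p = 0.0186). The count of 1108 depended on the libraries, and with a pair left out of both lines limma called 72 genes without WK and KK, 732 without WC and KC, and 0 without WA and KA, where 2195 genes had an unadjusted p below 0.05.

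For CAL-29, the library labelled KC had log2 levels that correlated with the K libraries of HT-1376 at 0.938 to 0.955, so its pair was also left out. No gene of 12826 passed the threshold in limma for the difference between HT-1376 and CAL-29 (0.0%), with 1277 genes at an unadjusted p below 0.05, whereas voom and edgeR called 0 and DESeq2 236. Without the KC pair of CAL-29 the count was also 0, with 2271 genes at an unadjusted p below 0.05. SPRR2D changed by −0.64, −1.57 and −1.97 in the 3 pairs of CAL-29, against 6.78, 3.75 and 4.70 in HT-1376, where the difference of 6.47 ± 0.81 was not called (adjusted p = 0.296).

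**Figure D5:**
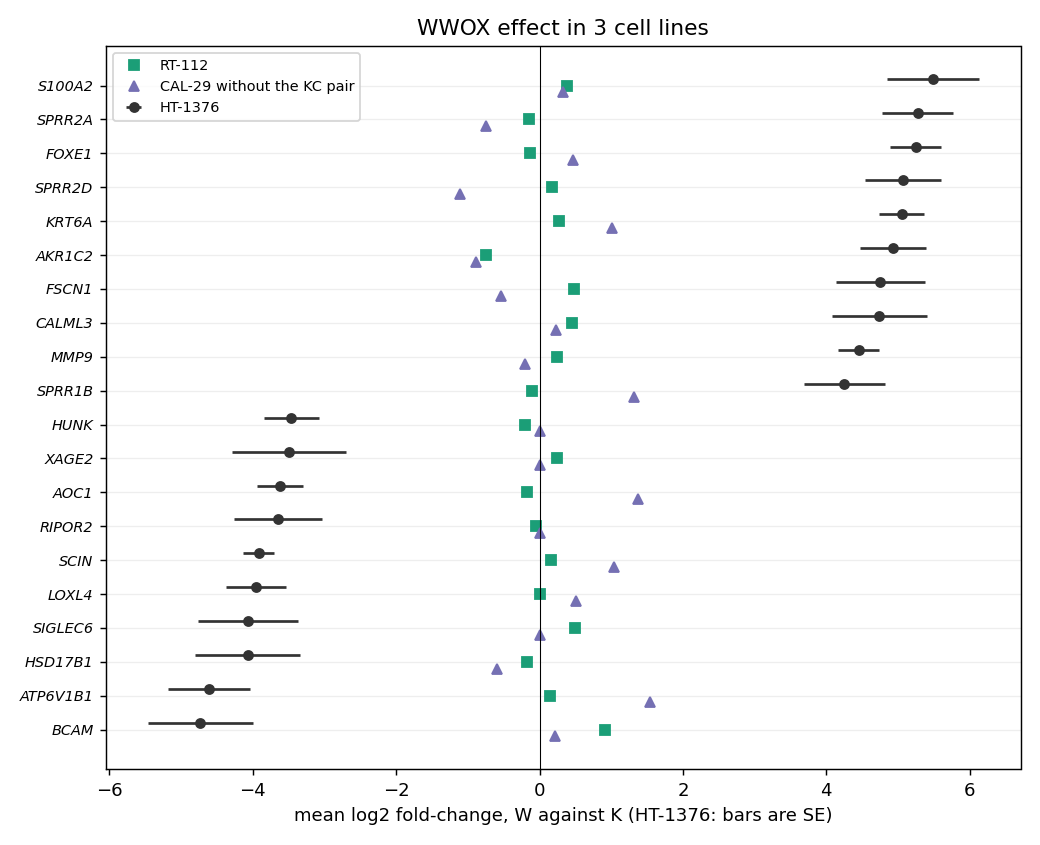
Mean log2FC of W against K for the 20 genes with the largest changes in HT-1376 (black, bars are SE), in RT-112 (green) and in CAL-29 without its KC pair (purple). The genes were chosen for their change in HT-1376, where they lie beyond 3 on either side, and in the other lines they lie within 2 of 0.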

How the data were processed

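CAGE-seq was performed by the authors on 18 libraries, and the 6 of HT-1376 were analysed here. The authors aligned reads to hg38 with BWA and HISAT2 (2.0.5, per the submitters' processing notes), grouped the 5′ ends into clusters by Paraclu (RECLU), kept those that were reproducible by IDR, and deposited 1 CPM value for each gene and library. The annotation, the total behind the CPM and the handling of reads that match several genes are not given in the sources used here. Scaling to CPM makes each level relative to the library. Columns outside the series numbered 0. Symbols were found for 16545 genes, and positions were taken from GENCODE 44.

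Genes with at least 5 CPM in 1 or more of the 6 libraries were transformed to log2(CPM + 0.5), where the pseudocount understates the change of low genes. limma 3.58.1 in R 4.3.3 was fitted with a variance trend and the second transduction, named in the labels, as a block, with Benjamini-Hochberg adjustment and a threshold of 0.05. Adjusted p-values and SE are from this fit, and n is 3 pairs. The difference between lines was the interaction of WWOX with the line. Whole reads were recovered from the CPM for over 99.9% of values per HT-1376 library and were used for voom, edgeR 4.0.16 and DESeq2 1.42.0 as alternatives, along with other pseudocounts and filters, TMM, quantile normalization, no block, all 18 libraries and each pair left out. For the library RT-112 WC the value of 1 read was settled from all values. No pair of HT-1376 libraries agreed within sampling noise. Scripts were tested on simulated data.

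The members and lists were chosen with earlier results of these data known. Genes named were SPRR2D, WWOX, TFAP2A and TFAP2C, the 10 largest mean log2FC in each direction among genes with the same sign in all pairs, no overlap between groups and at least 5 CPM in each library of the higher group, and up to 4 members per list with the largest changes. Further list members were named after their values were seen. Plots were drawn with matplotlib 3.10.9.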

Additional observations from a re-analysis of the deposited data

Results flagged for a closer look

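The effect of WWOX differed between HT-1376 and RT-112 by the interaction test of limma for 19 of the genes with the largest changes in HT-1376, and these genes had been chosen for their size in HT-1376. The differences on the log2 scale, HT-1376 minus RT-112, were 4.90 for SPRR2D, 5.10 for S100A2, 5.42 for SPRR2A, 5.39 for FOXE1, 4.78 for KRT6A, 5.67 for AKR1C2, 4.28 for FSCN1, 4.29 for CALML3 and 4.21 for MMP9. Among the lower genes they were −5.65 for BCAM, −4.76 for ATP6V1B1, −3.89 for HSD17B1, −4.56 for SIGLEC6, −3.95 for LOXL4, −4.07 for SCIN, −3.60 for RIPOR2, −3.44 for AOC1, −3.74 for XAGE2 and −3.26 for HUNK. SPRR1B differed by 4.36 and was not called (adjusted p = 0.0573). SPRR2D, SPRR2A, FOXE1, MMP9, HSD17B1, SIGLEC6, LOXL4, SCIN, RIPOR2, XAGE2 and HUNK did not pass the filter in RT-112 alone. For these genes the difference largely restates the change in HT-1376.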

How the results depend on the processing

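The 1928 genes called in HT-1376 became 147 in a fit of all 18 libraries with a pooled spread and 1074 in edgeR, and 390 to 1204 when a pair was left out. Under the other alternatives the count was 1438 to 2236, and without the replicate block it was 1623, which changed none of the counts of calls over all genes by more than 1.5 times. The block follows the second transduction that the labels name. The 1108 genes that differed from RT-112 became 0 to 732 when a pair was left out, and the count of 0 against CAL-29 became 236 in DESeq2. The same sign in all 3 pairs was found for 5756 to 6460 genes under the other filter, the pseudocounts and the scalings, for 8604 of 16280 genes with no filter, and in both remaining pairs for 7436 to 8446 when a pair was left out. The cause of these changes was not tested. Leaving out a pair also leaves fewer libraries, and the 2 were not separated. For 151 named genes, 2091 values were computed under alternatives, of which 1762 kept direction and side of the threshold, 274 lost the call, 39 gained one and 16 reversed. All reversals were of genes without a call. With a pair left out, TFAP2A ranged from −0.18 (without WC and KC) to 0.27, and was −0.0724 without WK and KK. S100A7 ranged from −0.66 (without WK and KK) to 1.01, CCN1 from −0.81 to 0.42 (without WA and KA), and WWOX from −0.31 to 0.0862 (without WA and KA), with 0.0393 without WK and KK. WWOX turned to 0.0532 with TMM, 0.16 with quantile normalization, 0.0783 in voom, 0.0815 in edgeR and 0.11 in DESeq2. YAP1 turned to 0.0143 with TMM, 0.0735 with quantile normalization, 0.0428 in voom, 0.0434 in edgeR and 0.0713 in DESeq2. With 1 library per variant and a limit of 3 reads, genes near 0 in K have no fixed fold.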
